A study of Mus musculus with 24 samples.

Results

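The genes that make, degrade and read the second messengers cAMP and cGMP were followed in neurons sorted from the cortex of adult mice. They were chosen by symbol: every adenylyl cyclase (Adcy), soluble guanylyl cyclase subunit (Gucy1), phosphodiesterase (Pde) other than Pde10a, subunit of protein kinase A (Prkaca, Prkacb and the 4 Prkar genes) and cGMP-dependent protein kinase (Prkg1 and Prkg2). The rule found 45 of the 36528 genes listed, of which 31125 had a symbol. The study measured bulk RNA from 24 libraries, 6 in each of 4 sorts labelled EXC, PV, SST and VIP. Males gave 4 of the EXC libraries, 3 of the PV, 4 of the SST and 2 of the VIP libraries, and females the rest. Cells were freed with papain and sorted as DAPI-negative and positive for GFP or tdTomato, the reporter depending on the mouse line. Neither the lines and their drivers, nor the age beyond adult, nor the number of animals behind a library is named, and no treatment is given. P-values therefore measure the spread between these libraries, which may be technical in part.

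Cyclic AMP is made by adenylyl cyclases under the control of G proteins and, for some forms, of calcium. Cyclic GMP is made in neurons mainly by soluble guanylyl cyclase, a heterodimer of an alpha and a beta subunit that senses nitric oxide. Phosphodiesterases end both signals, and each family differs in the nucleotide it hydrolyses and in its control by calcium, by cGMP or by phosphorylation. Protein kinase A, held inactive by its regulatory subunits until they bind cAMP, and the cGMP-dependent kinases carry the signals to channels, receptors and transcription factors such as CREB.

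Total counts ran from 1548907 to 15978459 reads per library, with PV shallowest and SST deepest. The labelled sorts carried their own markers: 8 excitatory markers summed to 1884 to 5450.4 CPM (reads scaled to library size with TMM factors) in EXC, 324 to 701 in PV and 332 to 923 in VIP. The 5 PV markers summed to 1439 to 2223 in PV and 459 to 553 in SST. The 5 SST markers summed to 1525 to 2279 in SST and 231 to 430 in VIP, and 5 VIP markers to 2336 to 2855 in VIP and 25.9 to 48.8 in SST. EXC replicate 3 had the lowest excitatory sum (1884) and the highest pan-GABAergic sum of the EXC libraries (901). Markers of other cells moved with the sorts as well. In EXC, 5 dentate granule cell markers (C1ql2, Lct, Dsp, Tdo2 and Smoc2) summed to 277 to 613 CPM against at most 8.59 in any other library. All 5 were called higher, and EXC replicate 3 was lowest. The list held 6 genes, and Prox1, high in VIP as well, was set aside for those sums. With Prox1 they were 1161 to 1653 CPM in EXC and 1077 to 1174 in VIP, and at most 19.3 in PV and 14.0 in SST. In PV, 7 markers of ciliated ependymal cells summed to 48.1 to 195 against at most 2.89 elsewhere, and mitochondrially encoded genes took 14.4% to 52.9% of reads. In SST, 9 markers of striatal projection neurons summed to 470.3 to 1717 against at most 672 elsewhere, and all 9 were called higher. Of 7 excitatory markers tested, 5 were called higher in SST than in PV and VIP, and 6 lower in VIP than in PV and SST. The excitatory sums were 424 to 773 CPM in SST and 332 to 923 in VIP. All 7 oligodendrocyte markers tested, of 9 listed, were called higher in EXC. Astrocyte markers (7 genes) summed to 1122 to 1639.5 in VIP and 500.4 to 4225 in EXC, against 236 to 342 in SST and 234 to 752 in PV. Their part in the results below was not tested, except where values without the libraries concerned are given. Most libraries of a sort shared 1 sequencing pool, so pool and subtype are largely confounded. A fit with the pool as a covariate links the pools only through EXC replicate 3, the 1 EXC library outside the pool of PV, and through VIP, of which replicates 1 and 3 lie in the pool of SST. Its values below rest on those few libraries. In SST, replicates 1, 2, 3 and 5 are all of the male libraries and also the 4 with the highest striatal sums, so sex and striatal markers cannot be told apart there.

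Of the 45 genes, 38 passed the filter on low counts and were tested with edgeR's quasi-likelihood F test, fitted to all 14890 genes that passed, with Benjamini-Hochberg adjustment over all of them and calls at an adjusted p under 0.05. Each subtype was compared with the mean of the fitted log2 levels of the others. In EXC against PV, SST and VIP, 12 genes were higher and 11 lower, beside 24.5% and 18.1% of all genes (42.5% together). PV against SST and VIP gave 9 higher and 13 lower, beside 19.3% and 21.6% of all genes (40.9%). Adding the pool as a covariate left 1 higher and 12 lower in PV. The shares of all genes called in this and the other refits are not given here. Changes in counts between fits are thus not read as particular to these genes. SST against PV and VIP gave 12 and 4, beside 11.2% and 7.15% (18.3%), and without SST replicates 1, 2, 3 and 5 it gave 1 lower. VIP against PV and SST gave 11 and 10, beside 25.8% and 20.5% (46.3%), and 6 lower with the pool as a covariate. The shares called among these genes were 60.5%, 57.9%, 42.1% and 55.3% of the 38, above the share of all genes in each comparison. For the SST comparison the median absolute log2 fold change was 0.73 in these genes and 0.33 in all genes. In the EXC, PV and VIP comparisons it was 0.84, 0.81 and 0.64, against 0.52, 0.56 and 0.58 in all genes. All 6 libraries of a sort lay above or below all libraries it was compared with for 3 higher and 2 lower genes in EXC (all genes 4.2% and 2.41%), 2 and 5 in PV (6.46% and 5.84%), 4 and 1 in SST (3.33% and 0.94%) and 5 and 1 in VIP (6.4% and 5.31%).

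**Figure D1:**
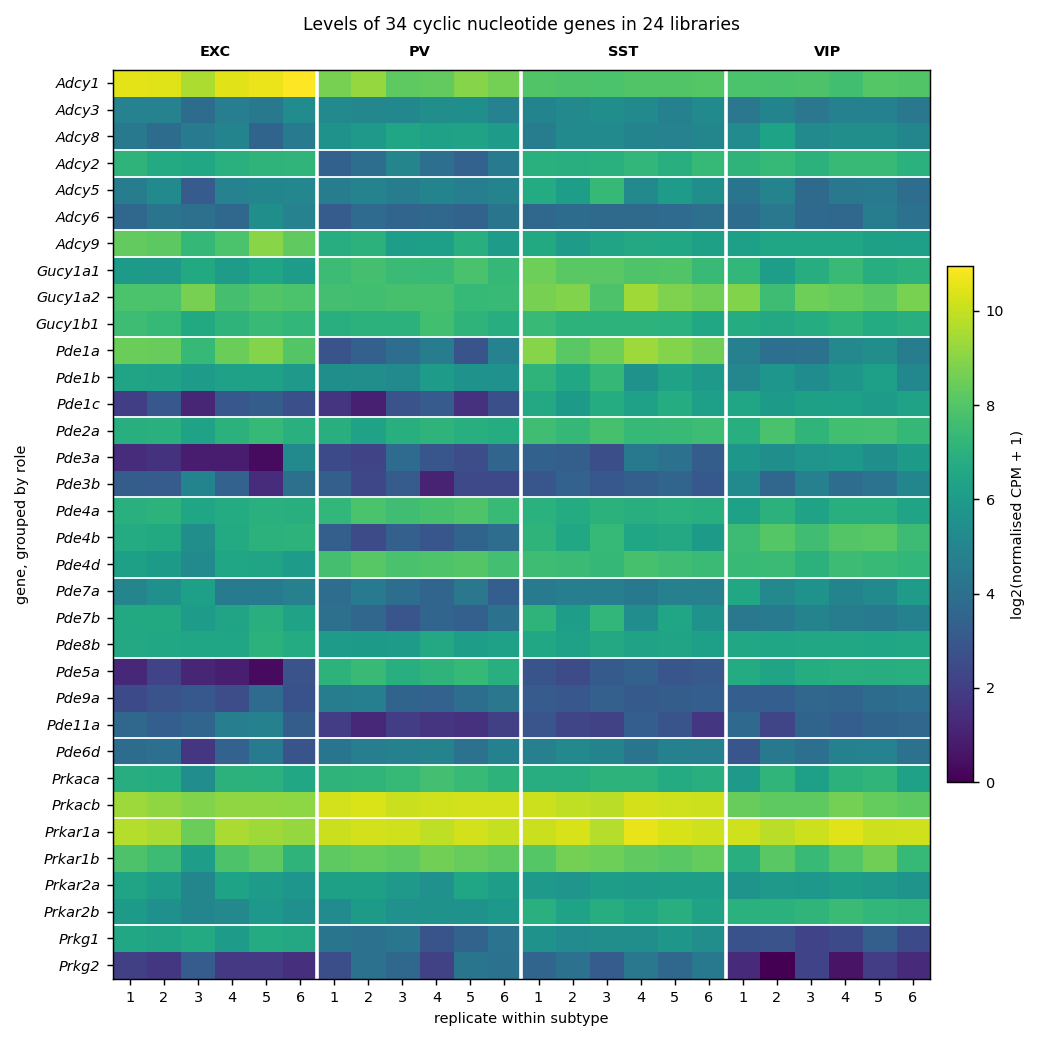
Heat map of the log2 of CPM plus 1 for the 34 genes that reached 10 CPM on average in a subtype (rows, grouped by role) in the 24 libraries (columns, 6 per subtype). High levels are bright and low levels dark. Pde1a is bright in EXC and SST and dark in PV and VIP, and Pde5a shows the reverse.

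The heat map of 34 genes shows how much the levels moved. Those 34 reached a mean of 10 CPM in a subtype, and 11 did not. The median ratio of the highest to the lowest subtype mean was 3.47 over the 34, against 2.11 over the 10027 genes that passed the same threshold. The ratio was at least 4 for 13 of the 34 (38.2%, all genes 23.5%) and at least 10 for 5 (14.7%, all genes 10.6%). SST had the highest mean for 11 genes, PV for 9, EXC for 8 and VIP for 6. Among all 10027 genes the percentages were 14.4 in SST, 30.3 in PV, 30.2 in EXC and 25.1 in VIP.

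CREB acts at the cAMP response element, so the start sites of these genes were searched for it. RefSeq gives windows of 300 bases, from 250 before to 50 after a start site, on build GRCm38.p6 for 35 of the 45 genes (73 windows). The full element TGACGTCA was found in 1 gene, Prkar1a, and in 2.03% of the 27025 genes with a window (1.79% of the 32851 windows). The half-site TGACG, searched on both strands (CGTCA on the other), was found in 16 of 35 genes and in 23.0% of all genes (20.8% of windows). Per window, the half-site was in 18 of the 73 (24.7%). A gene with more windows has more chances to hold a match, and these genes have more windows each than genes on average. The 1 full element lies in both of 2 overlapping windows of that gene. Every full element also holds 2 overlapping half-sites. The TATA box TATAAA was found in 3 of 35 genes and in 15.7% of all genes. Windows are printed for 4 genes with large differences between subtypes, to show a pair with opposite patterns (Pde1a and Pde5a), the most variable PDE4 gene and the main kinase gene, and for the gene with the full element. Capitals mark half-sites and the full element, which is a match of letters and no evidence of binding.
Pde1a, chr2:80038853-80039152, minus strand: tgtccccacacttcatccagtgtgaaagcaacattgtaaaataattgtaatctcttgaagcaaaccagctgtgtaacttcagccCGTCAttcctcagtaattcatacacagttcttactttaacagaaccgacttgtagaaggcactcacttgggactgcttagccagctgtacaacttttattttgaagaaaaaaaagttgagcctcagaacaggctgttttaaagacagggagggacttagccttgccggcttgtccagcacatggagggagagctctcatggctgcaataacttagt
Pde5a, chr3:122728908-122729207, plus strand: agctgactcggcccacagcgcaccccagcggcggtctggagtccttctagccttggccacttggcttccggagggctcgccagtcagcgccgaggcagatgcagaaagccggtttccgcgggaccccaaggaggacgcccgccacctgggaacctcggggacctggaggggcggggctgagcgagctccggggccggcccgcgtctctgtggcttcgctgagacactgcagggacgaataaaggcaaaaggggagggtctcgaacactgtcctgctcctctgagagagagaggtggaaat
Pde4b, chr4:102421305-102421604, plus strand: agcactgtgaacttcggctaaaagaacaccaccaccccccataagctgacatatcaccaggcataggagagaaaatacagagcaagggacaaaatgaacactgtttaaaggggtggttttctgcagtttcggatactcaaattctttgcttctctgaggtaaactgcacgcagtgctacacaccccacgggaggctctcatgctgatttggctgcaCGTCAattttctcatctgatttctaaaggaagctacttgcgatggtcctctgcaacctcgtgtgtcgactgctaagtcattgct
Prkacb, chr3:146812897-146813196, minus strand: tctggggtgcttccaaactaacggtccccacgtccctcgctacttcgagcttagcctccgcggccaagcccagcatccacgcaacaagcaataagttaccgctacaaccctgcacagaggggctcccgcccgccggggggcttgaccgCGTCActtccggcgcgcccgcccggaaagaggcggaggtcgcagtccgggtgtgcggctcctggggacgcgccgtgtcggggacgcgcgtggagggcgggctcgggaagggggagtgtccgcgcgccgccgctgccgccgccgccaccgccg
Prkar1a, chr11:109650699-109650998, plus strand: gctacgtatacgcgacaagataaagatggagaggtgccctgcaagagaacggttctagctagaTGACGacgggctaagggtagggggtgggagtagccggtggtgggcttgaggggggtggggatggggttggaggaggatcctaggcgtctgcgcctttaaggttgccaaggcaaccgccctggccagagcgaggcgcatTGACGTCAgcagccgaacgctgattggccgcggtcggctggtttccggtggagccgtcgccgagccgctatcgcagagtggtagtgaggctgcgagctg
The half-site began 166 bases before the start in Pde1a, 34 in Pde4b and 102 in Prkacb. The Pde5a window held none. Pde1a and Pde4b have 4 windows each in RefSeq, Prkacb 3, Prkar1a 6 and Pde5a 1. The window printed is that with the most full elements, then the most half-sites, then the highest start coordinate. The other windows of Pde1a, Pde4b and Prkacb held no half-site, so the printed lines do not compare these genes with Pde5a. These libraries do not say which start was used.

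Adenylyl cyclases make up the first step, and EXC stood apart in Adcy1 and Adcy9. Adcy1 (NCBI Gene 432530, chr11:7063433-7178506, coordinates on GRCm38.p6 here and below) encodes a cyclase stimulated by calcium and calmodulin and known for its part in synaptic plasticity. Its lowest, median and highest library were at 771, 1427 and 1976 CPM in EXC, 302, 414 and 601 in PV, 199.6, 232 and 267 in VIP and 228, 249 and 268 in SST. Every EXC library lay above every other library, and EXC replicate 3 was the lowest of them. The log2 fold change of EXC against the other subtypes was 2.28 ± 0.13 (SE, adjusted p = 1.06e-13), a 4.87-fold difference. PV followed EXC and exceeded both SST and VIP without overlap, by 0.79 (adjusted p = 0.00127) and 0.86 (adjusted p = 0.000316), while SST and VIP did not differ past the threshold (adjusted p = 0.815). With the pool as a covariate the EXC difference was 1.69 and the PV difference from the mean of SST and VIP turned to -0.25 (adjusted p = 0.663). The difference between PV and SST was also lost without SST replicates 1, 2, 3 and 5 (0.62, adjusted p = 0.206).

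Adcy9 (NCBI Gene 11515, chr16:4284886-4437236) encodes a broadly expressed cyclase set apart from the others by its weak response to forskolin. Its lowest, median and highest CPM were 155, 299 and 509 in EXC, against 63.3, 92.5 and 130.3 in PV, 71.5, 79.1 and 87.8 in VIP and 64.9, 87.7 and 98.2 in SST. Again no EXC library overlapped the rest, EXC replicate 3 was lowest, and the log2 fold change was 1.81 ± 0.16 (SE, adjusted p = 5.57e-10). Under the pool covariate it was 1.19 (adjusted p = 0.000782). The 3 GABAergic sorts did not differ past the threshold for Adcy9 (adjusted p from 0.402 to 0.826 in the 3 pairs). In bulk RNA a smaller number of cells that express a gene and less RNA per cell cannot be told apart.

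Adcy2, a cyclase that G protein beta-gamma subunits stimulate together with Gs, was the mirror case, with PV at the bottom (NCBI Gene 210044, chr13:68620043-68999600). Its lowest, median and highest CPM were 9.71, 14.8 and 30.2 in PV, against 91.8, 129 and 144 in EXC, 115, 122 and 162 in SST and 125, 148 and 171 in VIP. All PV libraries lay below all others, and the log2 fold change of PV against SST and VIP was -3.09 ± 0.20 (SE, adjusted p = 3.98e-12), a level lower 8.49-fold. The order from the top was VIP, SST, EXC and PV, and the first 3 did not differ from their neighbours past the threshold (adjusted p = 0.639 and 0.745).

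Adcy8, the other calcium-stimulated cyclase of the forebrain, was highest in PV at 68.7 ± 14.6 CPM (mean ± SD, n = 6, as for all means below). It averaged 44.6 ± 17.5 in VIP, 30.8 ± 4.83 in SST and 19.8 ± 6.81 in EXC, where it was lowest. The PV and EXC libraries did not overlap, and PV exceeded EXC by 1.78 ± 0.24 (SE, adjusted p = 1.03e-06) on the log2 scale. Adcy1 and Adcy8, which respond to the same signal, were thus highest in different sorts. In edgeR's fit with the pool as a covariate, the difference of Adcy8 between PV and the mean of SST and VIP fell from 0.90 to 0.81 (adjusted p = 0.32).

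Adcy5, a cyclase inhibited by calcium and by Gi and the main form of the striatum, was highest in SST (NCBI Gene 224129, chr16:35154494-35305743). SST replicates 1 to 6 had 105, 70.1, 159.6, 36.2, 65.1 and 42.9 CPM, while EXC ran from 7.83 to 35.8, PV from 23.1 to 29.6 and VIP from 12.8 to 28.4. The SST libraries lay above all PV and VIP libraries, with a log2 fold change of 1.70 ± 0.27 (SE, adjusted p = 3.07e-05). The same libraries differed in the summed striatal markers, which were 1558, 999, 1717, 470.3, 862 and 479 CPM in replicates 1 to 6. The highest Adcy5 values, in replicates 3 and 1, were thus in the libraries with the highest sums, and the lowest, in 4 and 6, in those with the lowest. Replicates 4 and 6 are also the 2 female SST libraries. Without replicates 1 and 3 the difference was 1.26 (adjusted p = 0.000794), and without replicates 1, 2, 3 and 5 it was 0.87 (adjusted p = 0.186).

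**Figure D2:**
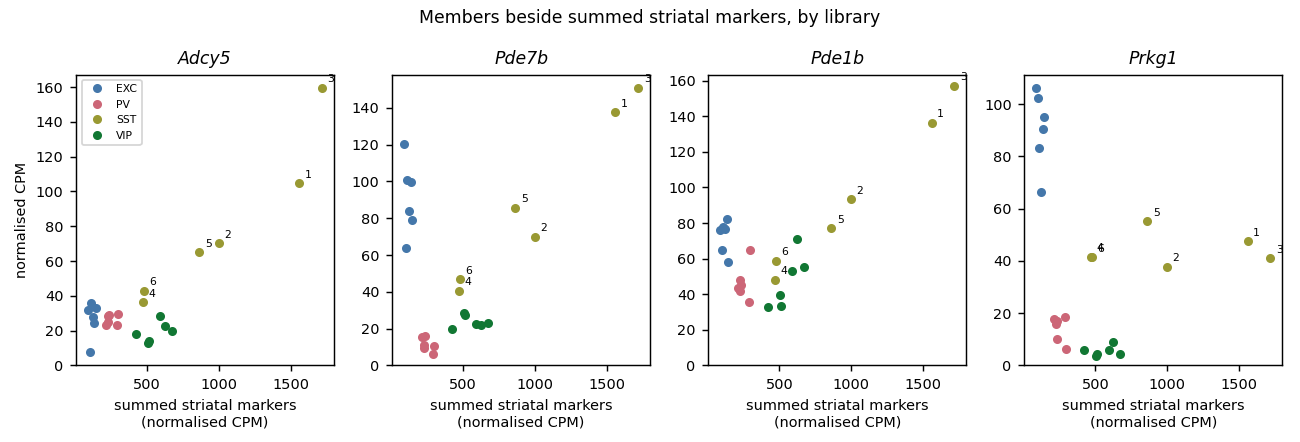
Summed CPM of 9 striatal projection neuron markers (horizontal axis) against the CPM of Adcy5, Pde7b, Pde1b and Prkg1 (vertical axes) in the 24 libraries. The SST points are numbered by replicate. For Adcy5, Pde7b and Pde1b, SST replicates 1 and 3 lie at the upper right, and replicates 4 and 6 at the lower end of the SST points. Prkg1 differs, with SST replicate 5 highest (55.3 CPM) and replicate 2 lowest (37.8).

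The other cyclases were low. Adcy6, the close relative of Adcy5, averaged 12.1 ± 3.45 CPM in PV to 21.2 ± 12 in EXC, and Adcy3, the cyclase of neuronal cilia, 23.7 ± 4.92 in VIP to 35.98 ± 5.82 in PV. GENCODE M21 gives 24.3% of the exon bases of Adcy3 to Cenpo on the opposite strand and 10.02% of those of Adcy6 to Gm29331, and without a stated strand setting their reads cannot be told apart. Adcy6 was called in EXC (0.59, adjusted p = 0.0331), and that call was lost with upper-quartile scaling (0.52), with the pool as a covariate (0.05) and in 11 of 24 fits that each left out 1 library. Without EXC replicate 5 it was 0.27 (adjusted p = 0.301) and without EXC replicate 6 0.48 (adjusted p = 0.105). Adcy7, another form stimulated by beta-gamma subunits, had at most 8.71 CPM on average, and Adcy10, the bicarbonate-sensitive soluble cyclase, at most 2.33. Adcy4 did not pass the filter, and 44 of its reads lay in EXC, where replicate 6 had 4.04 CPM and the others at most 0.681.

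Levels were compared between genes on the deposited RPKM scale (reads scaled to gene length and depth, adjusted by the authors' size factors), which accounts for length. Adcy1 supplied 57.5 ± 3.64% of the summed adenylyl cyclase RPKM in EXC and 44.96 ± 6.31% in PV. In SST and VIP it supplied 21.9 ± 2.37% and 22.99 ± 3.39%, and Adcy2 led there, with 33.9 ± 5.38% and 42.3 ± 2.82%. In PV Adcy2 supplied 5.46 ± 3.01%, behind Adcy9 and Adcy8 with 15.3 ± 3.28% and 15.3 ± 4.26%. The sum over the 10 cyclases was 119 ± 26.9 RPKM in EXC, and 44.6 ± 5.58 in PV, 50.8 ± 4.52 in VIP and 53.6 ± 4.80 in SST. No EXC library, from 76.7 to 153 RPKM, fell within the range of the others, which ended at 61.9.

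**Figure D3:**
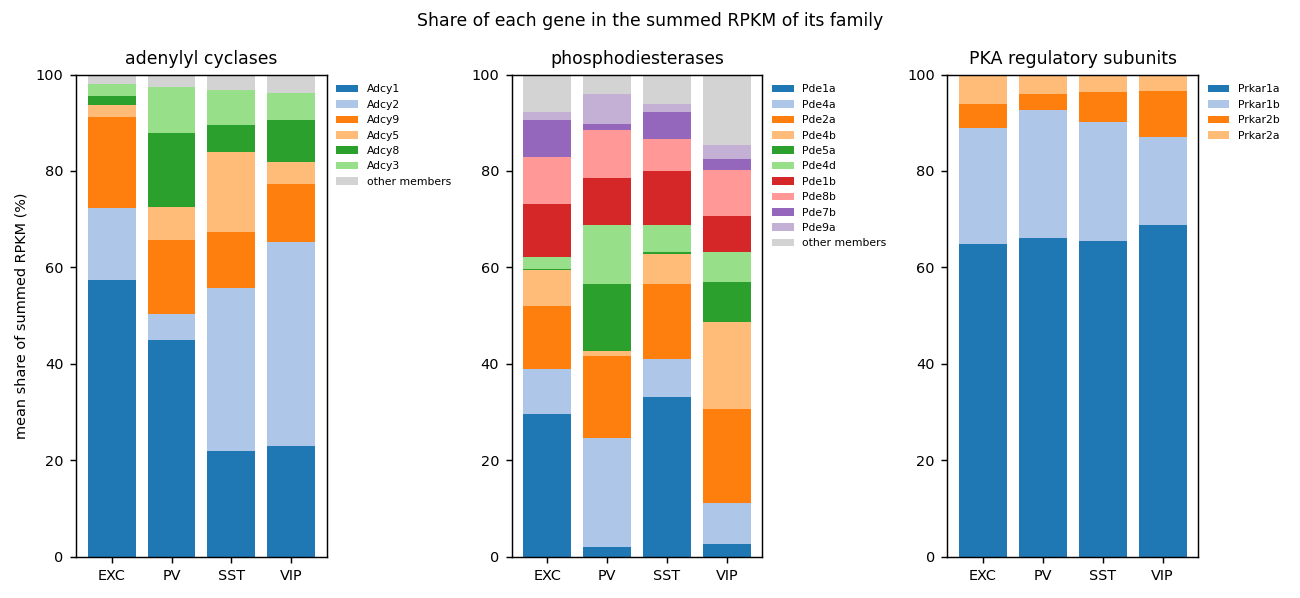
Mean share (percent) of the summed RPKM of a family taken by each gene in EXC, PV, SST and VIP (6 libraries each). Panels show the adenylyl cyclases, the phosphodiesterases and the regulatory subunits of protein kinase A. Genes under 5% in every subtype are in grey. Adcy1 takes 57.5% of the cyclase sum in EXC and 21.9% in SST, and Pde1a takes 33.1% of the phosphodiesterase sum in SST and 1.93% in PV.

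Both main alpha subunits of soluble guanylyl cyclase were called in several comparisons, and the beta subunit in 1 pair. Gucy1b1, the beta subunit that every dimer needs, averaged 151 ± 29.5 CPM in EXC, 139 ± 31.5 in PV, 112 ± 13.6 in VIP and 132 ± 23.6 in SST. None of the 4 comparisons with a mean called it, and of the 6 pairs it was called in VIP against EXC, at -0.42 ± 0.16 (SE, adjusted p = 0.0429). That call was lost with DESeq2's size factors, with upper-quartile factors, with no filter and in 19 of 24 fits without 1 library, and turned to 0.24 with the pool as a covariate (adjusted p = 0.602). Gucy1a1, the alpha subunit shared with vascular muscle, had its lowest, median and highest library at 59.2, 63.97 and 100.3 CPM in EXC, 153, 178 and 223 in PV, 67.9, 122 and 164 in VIP and 166, 266 and 367 in SST. EXC was lower than the other subtypes, with a log2 fold change of -1.38 ± 0.16 (SE, adjusted p = 1e-07), with EXC and VIP overlapping and EXC clear of PV and SST. Gucy1a2, the alpha subunit that binds synaptic scaffolds, was highest in SST at 439 ± 143 CPM and lowest in PV at 194 ± 23.4, and the log2 fold change of PV against SST was -1.17 ± 0.22 (SE, adjusted p = 0.000238). With the pool as a covariate the difference of PV from SST and VIP turned from -1.01 to 0.23 (adjusted p = 0.774), and EXC replicate 3, alone of its sort in another pool, had 421 CPM against at most 247 in the other EXC libraries.

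Per length, Gucy1a1 supplied 72.4 ± 4.05% of the alpha subunit RPKM in PV, 62.8 ± 9.90% in SST, 49.997 ± 4.74% in VIP and 43.9 ± 3.21% in EXC. The ratio of summed alpha RPKM to Gucy1b1 RPKM was 2.18 ± 0.219 in SST and 0.807 ± 0.438 in EXC. The EXC ratio was highest in replicate 3, alone of its sort in another pool. That library had 20.1 RPKM of Gucy1a2 (other EXC libraries at most 10.6), 13.4 of Gucy1a1 (at most 10.1) and 19.8 of Gucy1b1 (at least 24.5). Gucy1b2, a beta subunit with no settled role, did not pass the filter and had at most 1.68 CPM in a library.

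The calmodulin-dependent PDE1 family, which hydrolyses both nucleotides when calcium rises, held some of the widest differences of the set. Pde1a (NCBI Gene 18573, chr2:79834453-80196522) had its lowest, median and highest library at 281, 432 and 645 CPM in SST and 162, 346 and 488 in EXC, but at 5.98, 12.03 and 27.9 in PV and 15.1, 24.6 and 42.1 in VIP. The SST and EXC libraries formed a high group and the PV and VIP libraries a low one, with no overlap between them. SST exceeded the mean of PV and VIP by 4.52 ± 0.27 (SE, adjusted p = 1.49e-12), a 23.02-fold difference, and SST and EXC did not differ past the threshold (adjusted p = 0.26). Without SST replicates 1, 2, 3 and 5, the libraries with the highest striatal sums and all of the male ones, the value was 4.88 (adjusted p = 1.26e-08). Excitatory markers were also higher in SST than in PV and VIP, and their part in the Pde1a difference was not tested. Of its 4 start-site windows, the printed one was chosen for its CRE half-site, and the others held none.

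Pde1c (NCBI Gene 18575, chr6:56069798-56652510), the form with high affinity for cAMP as well as cGMP, divided the sorts in another way. The lowest, median and highest CPM of Pde1c were 61.4, 86.3 and 109.7 in SST and 61.3, 72.4 and 84.5 in VIP, and 0.937, 3.80 and 7.77 in PV and 1.27, 6.05 and 8.33 in EXC. SST and VIP were high together and PV and EXC low together. PV was 20.03-fold lower than the mean of SST and VIP (-4.32 ± 0.35 SE, adjusted p = 2.25e-10, on the log2 scale), and the pairs PV with EXC (adjusted p = 0.414) and SST with VIP (adjusted p = 0.657) did not differ past the threshold. Pde1b, the form known from striatal neurons, averaged 95.2 ± 43.4 CPM in SST, 72.6 ± 9.09 in EXC, 47.5 ± 14.9 in VIP, and PV ran from 35.7 to 65.1. SST was higher than PV and VIP by 0.90 ± 0.20 (SE, adjusted p = 0.00181). Its SST values again followed the striatal sums, with 157 and 136 CPM in replicates 3 and 1 and 48.2 in replicate 4, and without replicates 1, 2, 3 and 5 the difference was 0.28 (adjusted p = 0.74).

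Within the PDE1 family, Pde1a supplied 72.2 ± 6.13% of the summed RPKM in EXC and 69.6 ± 10.9% in SST. Pde1b supplied 82.7 ± 8.56% in PV and 56.2 ± 8.06% in VIP. Pde1c reached 24.5 ± 6.68% in VIP. The family sum was 61.04 ± 12.7 RPKM in SST, 43.8 ± 10.7 in EXC, 13.4 ± 2.66 in VIP and 8.87 ± 2.32 in PV.

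**Figure D4:**
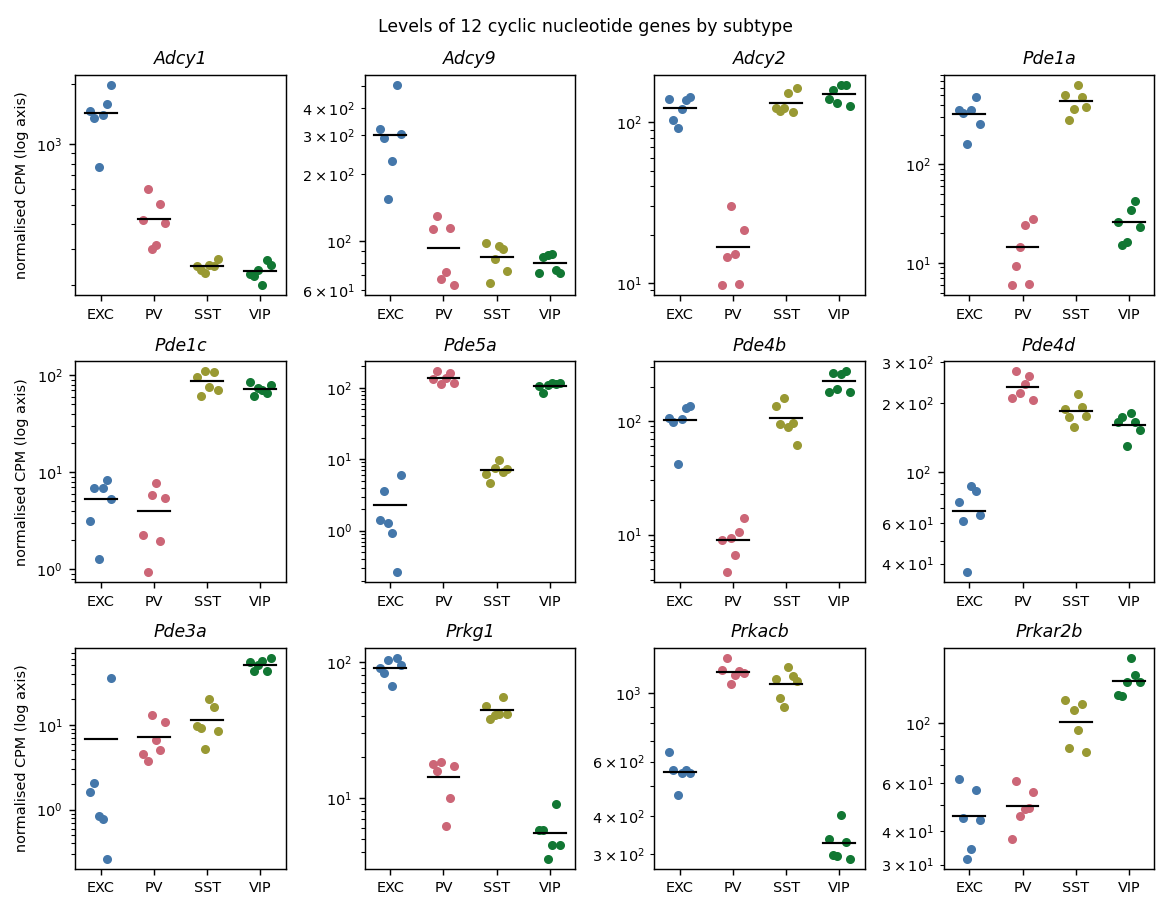
CPM on a log axis in each library of the 4 subtypes for genes with large differences, 1 panel per gene, with points for libraries and a black bar for the mean of 6. The SST points of Pde1a lie between 281 and 645 CPM and its PV points between 5.98 and 27.9, while Pde5a runs the other way, from 4.62 to 9.63 in SST and from 115 to 169 in PV.

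Pde5a (NCBI Gene 242202, chr3:122729158-122859374), the cGMP-specific enzyme that sildenafil inhibits, showed the pattern opposite to Pde1a. The lowest, median and highest CPM of Pde5a were 115, 136 and 169 in PV and 84.2, 111 and 117 in VIP, and 4.62, 6.93 and 9.63 in SST and 0.264, 1.34 and 6.05 in EXC. PV and VIP were high and did not differ past the threshold (adjusted p = 0.29). SST was 17.3-fold lower than PV and VIP (-4.11 ± 0.32 SE, adjusted p = 2.06e-10, on the log2 scale), with no overlap. EXC was lowest, and SST exceeded it by 1.62 ± 0.36 (SE, adjusted p = 0.000703) although their libraries overlapped, a call lost with the pool as a covariate (2.44, adjusted p = 0.0672). Its only start-site window, printed above, held neither element. Within the pool that PV shares with EXC, PV exceeded EXC by 5.86 ± 0.44 (SE), and within the pool that SST shares with VIP, SST differed from VIP by -3.83 ± 0.22.

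Pde9a, the cGMP-specific enzyme with the highest affinity, also had its highest mean in PV, at 17.2 ± 6.61 CPM. It averaged 11.3 ± 2.57 in VIP, 8.08 ± 0.853 in SST and 6.93 ± 3.15 in EXC. PV exceeded EXC by 1.33 ± 0.28 (SE, adjusted p = 0.000303) but did not differ from VIP past the threshold (adjusted p = 0.119). The PV difference from SST and VIP was lost with the pool as a covariate (0.59, adjusted p = 0.578). It was also lost without SST replicates 1, 2, 3 and 5 (0.71, adjusted p = 0.0938). GENCODE gives 13.2% of its exon bases to predicted genes on the opposite strand. The cGMP-specific enzymes together (PDE5, catalytic PDE6 and PDE9) supplied 20.3 ± 3.76% of the phosphodiesterase RPKM in PV and 11.7 ± 1.82% in VIP. In SST and EXC they supplied 2.18 ± 0.317% and 2.14 ± 0.766%. Enzymes that hydrolyse both nucleotides (PDE1, PDE2, PDE3 and PDE11, without Pde10a) made up 64.1 ± 3.26% in SST and 56.7 ± 4.26% in EXC, but 30.4 ± 4.70% in PV and 38.4 ± 2.08% in VIP. Pde11a, a dual enzyme known for hippocampal expression, averaged 15.4 ± 8.55 CPM in EXC, 9.56 ± 3.04 in VIP, 5.15 ± 2.36 in SST and 2.46 ± 0.707 in PV. EXC was higher than the mean of the others by 1.59 ± 0.28 (SE, adjusted p = 4.23e-05). The pair EXC and VIP did not differ past the threshold (0.59, adjusted p = 0.199).

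The PDE4 family, the cAMP-specific enzymes that rolipram inhibits, was led per length by Pde4b in VIP, at 18.2 ± 3.22 RPKM against 8.64 ± 1.82 for Pde4a. Pde4a led in PV (16.9 ± 2.65, Pde4d 9.11 ± 0.934), EXC (9.69 ± 1.09, Pde4b 8.11 ± 2.50) and SST (10.04 ± 0.770, Pde4b 8.23 ± 2.78). Pde4b (NCBI Gene 18578, chr4:102087332-102607275) had its lowest, median and highest library at 180.2, 225 and 274 CPM in VIP, 61.9, 95.1 and 160.2 in SST, 41.9, 105 and 136 in EXC and 4.69, 9.10 and 13.95 in PV. All VIP libraries lay above, and all PV libraries below, all the rest. PV was 17.6-fold lower than SST and VIP (-4.13 ± 0.28 SE, adjusted p = 8.6e-12, on the log2 scale), and VIP exceeded PV and SST by 2.90 ± 0.22 (SE, adjusted p = 3.46e-11). Under the pool covariate the smaller difference between EXC and the other 3 turned from 0.78 to -0.29 (adjusted p = 0.438). The PV and VIP differences of Pde4b kept their sign and their call under that setting (-5.96 and 3.60).

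Pde4d (NCBI Gene 238871, chr13:108654177-109955969), which is tethered to receptors and anchoring proteins in several splice forms, was lowest in EXC. Its lowest, median and highest CPM there were 36.8, 69.4 and 87.2, against 205, 231 and 274 in PV, 129, 165 and 181 in VIP and 158, 182 and 218 in SST. EXC did not overlap any other sort, with a log2 fold change of -1.49 ± 0.14 (SE, adjusted p = 1.62e-09). Pde4a was highest in PV, at 202 ± 35.5 CPM against 121 ± 8.72 in SST, 114 ± 16.2 in EXC and 99.6 ± 23.02 in VIP, and exceeded SST and VIP by 0.88 ± 0.13 (SE, adjusted p = 3.71e-06). With the pool as a covariate that difference was 0.11 (adjusted p = 0.85), and the PV excess of Pde4d over SST and VIP turned from 0.45 to -0.71 (adjusted p = 0.105). Per length, Pde4b made up 54.5 ± 1.80% of the PDE4 RPKM in VIP and 2.73 ± 1.19% in PV, where Pde4a made up 62.97 ± 2.38%. Pde4c, the family member with little brain expression, did not pass the filter, with at most 0.747 CPM in a library.

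Pde3a and Pde3b, which hydrolyse cAMP and are inhibited by cGMP, were highest in VIP. Pde3a (NCBI Gene 54611, chr6:141249269-141506862) had its lowest, median and highest library at 42.7, 52.6 and 60.7 CPM in VIP, 5.20, 9.35 and 20.3 in SST, 3.75, 5.84 and 13 in PV and 0.264, 1.24 and 35.4 in EXC. VIP lay above every other library, by 2.51 ± 0.57 (SE, adjusted p = 0.000818) against PV and SST. In EXC the highest value belonged to replicate 6 alone, the others being at most 2.04 CPM. That library also had the highest sums of 5 endothelial (129.5 CPM, other EXC libraries at most 23.3), 7 mural (121, at most 25.9) and 7 astrocyte markers (4225, at most 1723), whose part was not tested. Pde3b (NCBI Gene 18576, chr7:114415222-114537938) had 11.2, 21.7 and 36.3 CPM in VIP, 1.59, 9.25 and 30.03 in EXC, 6.59, 8.03 and 11.04 in SST and 1.11, 4.33 and 8.97 in PV as its lowest, median and highest. VIP was clear of SST and PV (1.85 ± 0.38 SE, adjusted p = 0.00027) but overlapped EXC, and with the pool as a covariate the difference was 1.04 (adjusted p = 0.168).

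Pde2a, the enzyme that cGMP activates to degrade cAMP, differed less, from 113 ± 19.1 CPM in PV to 179.6 ± 22.4 in SST. PV was lower than SST and VIP, with a log2 fold change of -0.63 ± 0.15 (SE, adjusted p = 0.00179). GENCODE places 87.9% of its exon bases under a second model on the same strand, Gm45837, so its counts may depend on how the authors treated the overlap.

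Pde7b (NCBI Gene 29863, chr10:20397052-20725078), a cAMP-specific enzyme known from striatum, had its lowest, median and highest CPM at 64.1, 91.9 and 120.3 in EXC, 40.7, 77.9 and 151 in SST, 20.01, 22.7 and 28.7 in VIP and 6.29, 10.99 and 16.1 in PV. PV lay below all other libraries (-2.05 ± 0.27 SE, adjusted p = 7.7e-07, against SST and VIP), and SST above PV and VIP (2.33 ± 0.23 SE, adjusted p = 1.8e-08). As with Adcy5, SST replicates 3 and 1 were highest (151 and 137 CPM) and 4 and 6 lowest (40.7 and 46.8). The SST difference was 1.92 without replicates 1 and 3 and 1.45 (adjusted p = 0.000474) without replicates 1, 2, 3 and 5, which leaves the 2 female libraries. Pde7a (NCBI Gene 18583, chr3:19223108-19311322) had 29.7, 41.2 and 92.8 CPM in VIP, 20.4, 25 and 26.5 in SST, 8.59, 14.4 and 21.6 in PV and 21.2, 28.5 and 71.9 in EXC. VIP was clear of PV and SST (1.43 ± 0.25 SE, adjusted p = 4.45e-05), overlapped EXC, and gave 0.79 with the pool as a covariate (adjusted p = 0.0825).

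Pde8b, a cAMP enzyme that the inhibitor IBMX spares, had means from 71.8 ± 12.8 CPM in PV to 99.5 ± 16.7 in EXC. EXC was higher than the mean of the others by 0.28 ± 0.10 (SE, adjusted p = 0.0323), and with the pool as a covariate by 0.14 (adjusted p = 0.579). As a pair, EXC and VIP did not differ past the threshold (adjusted p = 0.506). The call was lost with upper-quartile factors (0.22, adjusted p = 0.0741) and in 16 of 24 fits without 1 library, among them that without EXC replicate 5 (0.17, adjusted p = 0.204). Pde8a averaged 6.40 ± 9.13 CPM in EXC, where replicate 6 had 24.6 and the others at most 5.79. The call of Pde8a in EXC (1.51, adjusted p = 0.0193) was lost without replicate 6 alone, at 0.38 (adjusted p = 0.542), and without replicate 2 alone, at 1.41 (adjusted p = 0.0685). Without both it turned to -0.14 (adjusted p = 0.867). These were the libraries richest in oligodendrocyte markers (2987 and 2969.9 CPM over 9 genes, the other EXC libraries at most 819), and replicate 6 also had the high endothelial, mural and astrocyte sums given beside Pde3a.

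The PDE6 genes, which encode the light-regulated enzyme of photoreceptors, were near the detection limit. Pde6b, Pde6c, Pde6g and Pde6h did not pass the filter, and none of them exceeded 1.48 CPM in a library. Pde6h had 0 reads in the 17173654 counted in PV, where 3 counts would be 0.175 CPM. Pde6a averaged at most 2.27 CPM. Pde6d, a carrier of prenylated proteins rather than a catalytic subunit, was the exception at 26.9 ± 5.45 CPM in SST, 18.8 ± 8.04 in VIP and 11.3 ± 6.70 in EXC. EXC was lower than the mean of the others, with a log2 fold change of -0.996 ± 0.30 (SE, adjusted p = 0.00842). That call was lost without SST replicates 1, 2, 3 and 5 (-0.85, adjusted p = 0.0751). As a pair, EXC and VIP did not differ past the threshold (adjusted p = 0.116).

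Set against each other per length, the 20 catalytic phosphodiesterases summed to 129 ± 19.99 RPKM in SST, 106 ± 16.1 in EXC, 101 ± 7.76 in VIP and 74.6 ± 5.02 in PV. The ratio of that sum to the cyclase sum was 0.916 ± 0.132 in EXC, with a highest library of 1.08. It was 1.69 ± 0.219 in PV, 1.995 ± 0.102 in VIP and 2.40 ± 0.294 in SST, with a lowest library, in PV, of 1.42. RNA ratios say nothing of enzyme activity.

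**Figure D5:**
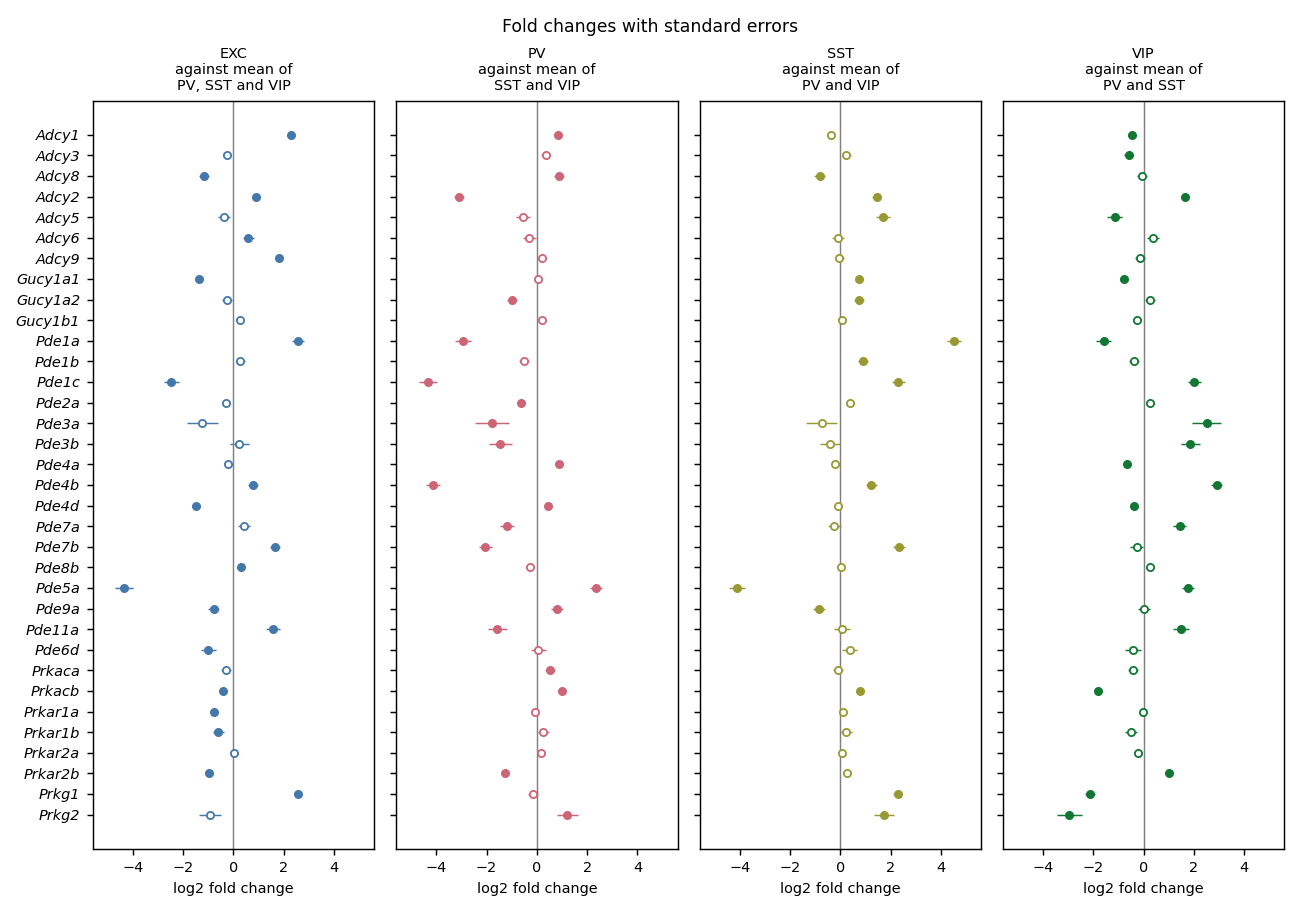
Log2 fold changes (horizontal axis) of the 34 genes that reached 10 CPM on average in a subtype (rows, by role), with bars of 1 SE. Panels show EXC against the mean of PV, SST and VIP, and each GABAergic sort compared with the mean of the remaining 2. Filled points are genes called by edgeR's test and open points those not called. Pde1a lies at 4.52 and Pde5a at -4.11 in the SST panel, and Pde1c at -4.32 and Pde4b at -4.13 in the PV panel.

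Protein kinase A was carried mainly by Prkacb and Prkar1a, and VIP had the least catalytic RNA. Prkacb (NCBI Gene 18749, chr3:146729579-146812946), the main catalytic subunit of brain, had its lowest, median and highest library at 1076, 1175 and 1300.0 CPM in PV, 906, 1105 and 1221 in SST, 468, 557 and 645 in EXC and 290.4, 313 and 403 in VIP. VIP lay below every other library, 3.48-fold lower than PV and SST (-1.80 ± 0.11 SE, adjusted p = 6.34e-13, on the log2 scale). PV and SST did not differ past the threshold (adjusted p = 0.456), and EXC stood between, clear of both groups. The VIP value was -1.66 with the pool as a covariate, and within the shared pool SST exceeded VIP by 1.83 ± 0.22 (SE). Prkaca, the other catalytic gene, averaged 158 ± 25.99 CPM in PV, 119.8 ± 12.2 in SST, 104 ± 39.1 in VIP and 102 ± 33.3 in EXC. Its call in PV (0.51, adjusted p = 0.0416) turned to -1.64 (adjusted p = 0.00344) with the pool as a covariate, and was lost in 16 of 24 fits without 1 library. Prkaca did not pass the threshold in SST against VIP (0.23 ± 0.24 SE, adjusted p = 0.489), but within their shared pool, where VIP has replicates 1 and 3 alone, the difference was 1.03 ± 0.20 (SE, adjusted p = 0.001).

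Among the regulatory subunits, Prkar1a (NCBI Gene 19084, chr11:109649023-109669663), the widespread type I subunit with the full CRE near a start site, was lowest in EXC. Its lowest, median and highest CPM were 363, 710.2 and 839.7 in EXC, 953, 1121 and 1187 in PV, 909, 1131 and 1379 in VIP and 848, 1188 and 1556 in SST. No EXC library reached the others, with a log2 fold change of -0.77 ± 0.13 (SE, adjusted p = 4.07e-05), and the 3 GABAergic sorts did not differ past the threshold. Prkar2b (NCBI Gene 19088, chr12:31958450-32061648), the type II subunit of neurons, ran 127, 142 and 174 CPM in VIP, 78, 103 and 122 in SST, 37.4, 48.4 and 61.4 in PV and 31.5, 44.3 and 62.04 in EXC. VIP was above all other libraries (1.02 ± 0.15 SE, adjusted p = 3.33e-06, against PV and SST), and PV was below SST and VIP (-1.29 ± 0.16 SE, adjusted p = 2.95e-07). Prkar1b, the neuronal type I subunit, averaged 193 ± 83.4 CPM in EXC, 230 ± 99.9 in VIP, 327 ± 34.1 in PV and 327 ± 53.4 in SST. EXC was lower than the mean of the others, with a log2 fold change of -0.60 ± 0.23 (SE, adjusted p = 0.0337). That call was lost without EXC replicates 2 and 6 (-0.48, adjusted p = 0.176). EXC and VIP did not differ past the threshold as a pair (adjusted p = 0.458). In VIP, replicates 1 to 6 had 119.8, 284, 165, 268, 385 and 159 CPM of Prkar1b and 58.1, 143, 71.4, 132, 141 and 76.8 of Prkaca. Mitochondrially encoded genes took 1.80, 14.6, 5.83, 14.2, 16.6 and 4.81% of the reads of those libraries, in the same order. The excitatory sums were 337, 923, 337, 567, 817 and 332 CPM. VIP replicates 2, 4 and 5 were thus highest in all 4 measures. Among other genes described above, VIP replicates 1 to 6 had 75.8, 128.7, 79.4, 115.03, 116.5 and 82.1 CPM of Pde4a. They had 114.6, 221, 142, 194.9, 201 and 154.2 of Pde2a, and 6.60, 20.4, 15.2, 27.2, 27.8 and 15.9 of Pde6d. VIP replicates 2, 4 and 5 were again highest in these. The same libraries were the lowest of the VIP libraries for Pde3b (36.3, 11.2, 26.5, 14.2, 16.9 and 31.1 CPM in replicates 1 to 6) and Pde7a (92.8, 34.7, 47.3, 29.7, 35.1 and 64.4). The part of these differences between libraries was not tested. Prkar2a, from 57.4 ± 7.70 in VIP to 67.5 ± 13.6 in PV, was called in none of the 10 comparisons between subtypes.

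Per length, Prkar1a supplied between 64.8 ± 4.90% (EXC) and 68.7 ± 6.71% (VIP) of the regulatory RPKM, and Prkacb 81.4 ± 2.52% of the catalytic RPKM in SST and 61.7 ± 8.81% in VIP. Summed catalytic RPKM was 173 ± 8.16 in PV, 149.8 ± 14.6 in SST, 89.1 ± 9.63 in EXC and 63.9 ± 10.6 in VIP. The ratio of regulatory to catalytic RPKM was 3.99 ± 0.479 in VIP, with a lowest library of 3.21. It was 1.74 ± 0.184 in SST, 1.68 ± 0.276 in EXC and 1.40 ± 0.0817 in PV, with a highest library, in SST, of 2.06.

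The cGMP-dependent kinases followed another order. Prkg1 (NCBI Gene 19091, chr19:30564487-31765268), the cytosolic kinase, had its lowest, median and highest library at 66.2, 92.9 and 106 CPM in EXC, 37.8, 41.5 and 55.3 in SST, 6.29, 16.6 and 18.5 in PV and 3.60, 5.19 and 9.01 in VIP. EXC was clear of all other libraries (2.57 ± 0.16 SE, adjusted p = 3.82e-13, 5.93-fold), and SST was clear of PV and VIP (2.29 ± 0.18 SE, adjusted p = 2.82e-10). Each step of the order from EXC to SST, PV and VIP passed the threshold (adjusted p = 0.000217, 3.79e-06 and 7.5e-05). The first of them did not with the pool as a covariate (-0.85, adjusted p = 0.213). It was also lost without SST replicates 1, 2, 3 and 5 (-0.94, adjusted p = 0.0835). The EXC and SST values with the pool as a covariate were 2.51 and 2.49. Excitatory markers were called in the same directions as Prkg1 in EXC, SST and VIP, and their part was not tested. Prkg2, the membrane-bound kinase, was low, with 14.7 ± 5.19 CPM in SST, 11.8 ± 6.22 in PV, 3.43 ± 2.30 in EXC and 1.69 ± 1.38 in VIP, and VIP was lower than PV and SST, with a log2 fold change of -2.96 ± 0.50 (SE, adjusted p = 2.84e-05). EXC thus had high Prkg1 and little Pde5a, and VIP the reverse.

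Genes around this core were read from lists of the wider pathway. Their counts stand beside the shares of all genes called higher and lower, which were 24.5% and 18.1% in EXC, 19.3% and 21.6% in PV, 11.2% and 7.15% in SST, and 25.8% and 20.5% in VIP. With 3 to 18 genes tested in each, the lists are small, and nothing particular to a list is read from its counts. Of 18 A-kinase anchoring proteins tested, which tether protein kinase A, 7 were higher and 3 lower in EXC, 2 and 8 in PV, 5 and 3 in SST, and 6 and 4 in VIP. Akap5, the postsynaptic anchor of the kinase and of calcineurin, averaged 415 ± 81.8 CPM in SST, 187 ± 16.4 in EXC, 101 ± 14.8 in PV and 54.6 ± 8.78 in VIP, higher in SST by 2.52 ± 0.12 (SE, adjusted p = 3.05e-14). Wasf1, an actin regulator, averaged 557 ± 88.7 in EXC and 76.2 ± 13.1 in PV, higher in EXC by 2.10 ± 0.10 (SE, adjusted p = 3.25e-15). In PV, Ezr, a linker of membrane and actin, was higher by 2.58 ± 0.31 (SE, adjusted p = 2.72e-07), beside the ependymal sums given above. The median log2 fold change of the 18 was -0.38 in PV (all genes -0.08), 0.11 in VIP (all genes 0.04), 0.25 in SST (all genes 0.00) and 0.21 in EXC (all genes 0.06).

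Of the 3 inhibitor peptides of protein kinase A, Pkib was highest in VIP, at 59.97 ± 17.4 CPM against 13.8 ± 3.09 in SST, with a difference from PV and SST of 2.05 ± 0.20 (SE, adjusted p = 3.78e-09). Pkia was higher in SST by 0.99 ± 0.13 (SE, adjusted p = 2.08e-06) and in EXC by 0.56 ± 0.12 (SE, adjusted p = 0.000528). The 7 G protein alpha subunits gave 1 higher and 3 lower in EXC, 2 and 3 in PV, 4 and 0 in SST, and 1 and 3 in VIP. Gnal, which stimulates cyclase in striatum and olfactory neurons, averaged 602 ± 195 CPM in SST and 216 ± 32.3 in VIP, and Gnai1, an inhibitory subunit, 690.0 ± 74.9 in VIP and 246 ± 64.2 in EXC. The part of the striatal markers in the SST level of Gnal was not tested.

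Nos1, the neuronal nitric oxide synthase, was 316 ± 101 CPM in SST, 104 ± 22.7 in EXC, 58.7 ± 8.64 in VIP and 45.6 ± 18.4 in PV, and SST exceeded PV and VIP by 2.61 ± 0.19 (SE, adjusted p = 6.2e-11). Of the 5 genes tested from the list of synthases and receptor guanylyl cyclases, 1 was higher and 1 lower in EXC, 1 and 3 in PV, 2 and 0 in SST, and 2 and 2 in VIP. Rapgef3, a guanine nucleotide exchange factor that cAMP activates directly, averaged 14.1 ± 6.31 CPM in VIP and 1.57 ± 0.925 in SST, a difference of VIP from PV and SST of 3.30 ± 0.43 (SE, adjusted p = 6.65e-07). Among 5 tested genes of these other cyclic nucleotide sensors, 4 were higher and 1 lower in EXC, 0 and 2 in PV, 0 and 1 in SST, and 3 and 0 in VIP.

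Of 8 genes of the CREB family and its coactivators, 5 were higher and 0 lower in EXC, 0 and 4 in PV, 1 and 1 in SST, and 3 and 0 in VIP. Crtc1, a coactivator that calcium and cAMP send to the nucleus, averaged 165 ± 37.1 CPM in EXC and 31.7 ± 3.89 in PV, higher in EXC by 1.89 ± 0.14 (SE, adjusted p = 1.25e-11). Of 5 phosphatase inhibitors and other kinase substrates, 4 were higher and 0 lower in EXC, 0 and 2 in PV, 3 and 0 in SST, and 1 and 2 in VIP. Ppp1r1b, known as DARPP-32 and also 1 of the 9 striatal markers, averaged 151 ± 102 CPM in SST and 4.26 ± 4.24 in VIP. Arpp21 averaged 376 ± 203 in SST, 358 ± 136 in EXC, 237 ± 74.05 in VIP and 25.9 ± 10.7 in PV, where it was lower than in SST and VIP, with a log2 fold change of -3.53 ± 0.29 (SE, adjusted p = 2.06e-10). For Ppp1r1b and Arpp21, too, the part of the striatal markers in the SST levels was not tested.

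In pairs of subtypes, PV against EXC called 13 of the 38 core genes higher and 13 lower, beside 20.3% and 25.6% of all genes (45.9% together). SST against EXC called 15 and 7 (17.1% and 21.3%, 38.4%), and VIP against EXC 11 and 7 (18.4% and 20.7%, 39.1%). PV against SST called 5 and 12 (11.4% and 14.9%, 26.3%). PV against VIP called 10 and 14 (21.9% and 26.7%, 48.6%), and SST against VIP 9 and 10 (14.6% and 16.7%, 31.3%). Comparisons that share a subtype share its libraries. Refitted within the pool that holds both sorts, PV against EXC gave 12 higher and 11 lower (6 PV and 5 EXC libraries), and SST against VIP gave 14 and 9 (5 SST libraries and 2 of VIP, replicates 1 and 3). The shares of all genes in these refits are not given here, so nothing particular to these genes is read from the counts. Pde2a, Pde4a, Pde6d, Prkaca and Prkar1b were called higher in SST there but not in the full fit. For each, VIP replicates 1 and 3 lay below VIP replicates 2, 4 and 5. Within the pool of SST and VIP, Pde1a differed by 4.44 ± 0.38, Prkg1 by 3.25 ± 0.27, Pde3a by -2.24 ± 0.31 and Pde4b by -0.82 ± 0.25 (log2 ± SE). Within the pool of PV and EXC, Adcy1 differed by -1.84 ± 0.17, Adcy2 by -2.98 ± 0.25 and Pde4d by 1.70 ± 0.13.

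Sex left no call among these genes. In female against male libraries, edgeR's test called 0 of the 38 beside 6 of 14890 genes (0.0403%, with 0.0134% higher and 0.0269% lower). At an unadjusted p under 0.05 there were 0 of the 38, beside 2.63% of all genes. DESeq2 called 0 of them as well. The median absolute log2 fold change was 0.13 in these genes and 0.14 in all genes. The joint test of sex by subtype called 0 of 14890 genes by edgeR (0%). At an unadjusted p under 0.05 that test held 2 of the 38, Pde7b and Pde1b, beside 2.14% of all genes. In SST the male libraries are those with the high striatal sums, so sex and those sums cannot be told apart for both genes.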

How the data were processed

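The authors aligned reads with GSNAP (version not given in the sources used here) to GRCm38, per the submitters' processing notes. The deposited counts hold reads that aligned uniquely to a gene model, per the file headers, and a second deposited column holds RPKM adjusted by a size factor. No source used here gives the annotation, the strand setting or the size factor method. Counts served for all tests and for CPM, and RPKM for levels compared between genes. Symbols came from RefSeq (31049 genes) and GENCODE M21 (76 more). The members, lists and tests were chosen with earlier results of these data known.

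Counts were filtered with filterByExpr by subtype, scaled by TMM and fitted with terms for subtype and sex in edgeR 4.0.16 (R 4.3.3) over 24 libraries. The SE is the absolute log2 fold change divided by the square root of F. The fit was tested on simulated data. A level of 10 CPM is 15.5 reads in the shallowest library and 160 in the deepest (the median total is 6012251.5), with counting errors of 25.4% and 7.91%. Counts of the 60 pairs of libraries within a subtype differed by a chi-square of at least 5.58 per degree of freedom, so none was a copy. Replicates are numbered in order of deposition, which pairs nothing.

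Genes at 10 CPM or more in a subtype are described. Library values are given for genes called against a mean with an absolute log2 fold change of at least 1 and no overlap between libraries, up to 12 per comparison, and for others chosen after their values were seen. Of each pathway list up to 4 called genes by size of change, and up to 1 not called, could be named per comparison, and a part of them is. Lists are described by counts and medians, with no set test. Alternatives were DESeq2 1.42.0, its size factors, upper-quartile factors, no filter, at least 5 CPM in 6 libraries, the pool as a covariate, no sex term, robust empirical Bayes, the compared groups alone, the shared pool alone, leaving out each library or certain libraries together, and leaving out mitochondrially encoded genes. Leaving out SST replicates 1 and 3, or 1, 2, 3 and 5, was chosen after seeing the data.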

Additional observations from a re-analysis of the deposited data

Results flagged for a closer look

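In 136 groups of 6 libraries (34 genes in 4 subtypes), 7 had a library far from the other 5, where its gap to the nearest, divided by the whole range, passed Dixon's 95% critical value. Chance alone flags about 1 in 20 groups. EXC replicate 3, alone of its sort in its pool, was highest of the EXC libraries for Gucy1a2 (421 CPM, next 247) and for Prkg2 (8.04, next 3.25). EXC replicate 6 was highest for Pde3a (35.4 CPM, next 2.04), and its marker sums are given beside that result. EXC replicate 5 was highest for Pde9a (13.1, next 7.19). In VIP, replicate 2 was highest for Adcy8 (79.5, next 42.0) and lowest for Pde5a (84.2, next 106). In PV, replicate 4 was highest for Gucy1b1 (200.1, next 138).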

How the results depend on the processing

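No paired analysis was possible because the replicate numbers follow the order of deposition and link no libraries across subtypes. The report's 208 calls of single genes were followed through each alternative. All 208 kept sign and call without mitochondrially encoded genes, and 207 with DESeq2. Leaving out each library in turn gave 4992 values, of which 4778 kept their call, 214 lost it and 0 changed sign. The pool as a covariate left 133 in place, ended 50 and reversed 25. That fit links the pools only through EXC replicate 3 and VIP replicates 1 and 3. Without EXC replicates 2 and 6, 20 calls were lost and 1 reversed. Without SST replicates 1 and 3, 20 were lost, and without SST replicates 1, 2, 3 and 5, 57.

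With the pool as a covariate the reversed log2 fold changes were as follows, and the cause was not tested. For EXC against the others it was Pde4b -0.29. For PV against SST and VIP they were Adcy7 0.35, Pde3b 0.90, Pde7a 0.77, Prkaca -1.64, Gucy1a2 0.23, Pde4d -0.71 and Adcy1 -0.25. For SST against PV and VIP it was Gucy1a2 -0.080, and for VIP against PV and SST Pde4d 0.12 and Adcy1 0.065. For SST against EXC they were Adcy7 -0.17, Prkg2 -0.33 and Gucy1a2 -0.45, and for VIP against EXC Gucy1b1 0.24. For PV against SST they were Adcy7 0.25, Pde4a -0.21, Gucy1a2 0.21 and Adcy1 -0.29. For PV against VIP they were Adcy3 -0.54, Adcy7 0.45, Prkaca -1.18, Gucy1a2 0.25, Pde4d -0.56 and Adcy1 -0.21. Without EXC replicates 2 and 6, Pde8a in EXC reversed to -0.14.

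The counts of genes called that moved by over 1.5 times were these. They stand without the shares of all genes in the same fits, so nothing particular to these genes is read from them. With the pool as a covariate PV had 1 higher and VIP 6 lower. Without SST replicates 1, 2, 3 and 5, PV had 5 higher, SST 1 lower and SST against VIP 2 lower. Without SST replicates 1 and 3, SST had 2 lower and SST against VIP 5 lower. DESeq2 gave SST 7 lower, and the shared pool alone gave SST against VIP 14 higher. Leaving out 1 library gave 6 to 10 lower in SST against VIP, with 6 without VIP replicate 1. It gave 9 to 12 higher and 10 to 13 lower in EXC, 7 to 9 and 12 to 16 in PV, 11 to 13 and 3 to 6 in SST, and 11 to 12 and 8 to 12 in VIP. Depth limits the genes under 10 CPM most, and PV above all.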
